A study of Mus musculus with 2 samples.

Results

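The genes described here encode the metal-dependent proteases of the extracellular matrix and cell surface and their inhibitors, namely matrix metalloproteinases (MMPs), ADAMs, ADAMTS proteases, ADAMTS-like proteins and tissue inhibitors of metalloproteinases (TIMPs). They were taken by symbol: every probe set annotated with a single gene whose name is Mmp, Adam, Adamts, Adamtsl or Timp followed by a number and at most 1 letter. The choice of these families was made with earlier results of these data known. The symbol rule gave 124 probe sets for 70 genes, out of 18193 named genes on the array. Of these, 18 were MMPs, 28 ADAMs, 15 ADAMTS proteases, 5 ADAMTS-like proteins and 4 TIMPs. A further 15 RefSeq genes with such names, among them Mmp15, Mmp28 and Adamts2, were not analysed here.

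Uterine stromal cells were isolated on day 4 of pregnancy and their RNA was measured on 2 oligonucleotide arrays, 1 per genotype. The control came from mice labelled Hand2 Floxed, and the comparison from Hand2-null mice, in which PRcre, a Cre recombinase made from the progesterone receptor locus, removed the floxed gene. Both arrays are labelled with a mixed C57BL/6 and SV129 background and list the Cre line. Cre made from that locus acts in the progesterone receptor-expressing cells of the uterine wall and is not limited to stroma. The RNA of several mice was pooled for each array, and the labels give both 5 and 4 as the number of mice of a genotype. There was thus no replicate, and neither a p-value nor an error between animals can be given for any difference below.

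MMPs are zinc proteases that cut collagens and other matrix proteins. They are made with a propeptide that must be removed, either inside the cell by furin-like enzymes or outside it by other proteases, and TIMPs block the active enzymes. ADAMs are membrane proteases that release growth factors and receptors from the cell surface, although some have lost the catalytic site. ADAMTS proteases are secreted and cut proteoglycans such as versican or trim procollagens, and ADAMTS-like proteins share their domains but hold no protease. In the uterus these families take part in the matrix remodelling that accompanies implantation and decidualization.

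Values are MAS5 signals, a linear array intensity. The floor was the 60th percentile of each array, 64.2 in the control and 67.5 in the Hand2-null pool. Lower signals were raised to it, and a gene counted as measured when 1 array reached it. Positive log2 ratios stand for more signal in the Hand2-null pool. Where 1 array lay under the floor, the fold is a bound and is written as at least that value. The probe set with the highest mean signal stood for its gene. Signals of different probe sets are not on a common scale, so levels of different genes are not compared. No replicate error exists, but log2 ratios of probe sets of 1 gene could be compared: their standard deviation was 0.22 across 4065 genes, and 0.23 across the 16 genes described here that had several measured probe sets. This spread holds no variation between mice.

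Hand2 itself read 1545 in the control and 38.5 in the Hand2-null pool, below the floor, so that it was at least 22.9-fold lower. All 11 markers of stroma were measured, and their median log2 ratio was -0.21. Of these, 5 had more signal in the Hand2-null pool and 6 had less. Their signals summed to 33619 for the control and 37611 for the Hand2-null pool, so the median and the sum differed in direction. Des among them is also a smooth muscle marker. The isolates held other cell types too, and their markers differed between the arrays. All 13 smooth muscle markers on the array were measured and higher in the Hand2-null pool, with a median log2 ratio of 1.36 and a summed signal of 24124 in the control and 50945 in the Hand2-null pool. Only Myocd among them was under the floor in the control. Of 8 mesothelial markers 6 were measured, with a median of at least 0.86 and summed signals over all 8 of 1060 and 1535. Msln, Upk1b and Lrrn4 were under the floor in the control, so their ratios are bounds. Wt1 was the 1 measured mesothelial marker that was lower, with 633 and 541. Krt14 and Muc16 were under the floor in both arrays. The 14 epithelial markers, 11 higher and 3 lower, had a median of 0.20 and summed signals of 10154 and 12267. Ltf, with 559 and 1566, and Lcn2, with 162 and 758, had the largest ratios of this list and add to the rise in its sum. The 7 endothelial markers had a median of -0.33 and summed signals of 2534 and 1879. Macrophage markers, 10 of 11 measured, had a median of -0.08, with summed signals of 10942 and 10457. Neutrophil markers, 3 of 4 measured, had -0.86, with summed signals of 400 and 204. Markers of NK and T cells, 4 of 7 measured, had -0.39, with summed signals of 695 and 640. Genes induced by cell handling, 15 of the immediate-early and heat-shock classes, had a median of 0.45, with summed signals of 36448 and 46524. The cell type that held each transcript below is therefore not known. More cells of a type and more RNA per cell cannot be told apart, and the part of these marker differences in the values below was not tested.

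Of the 70 genes, 34 were measured, 30 of them above the floor in both arrays. Their log2 ratios ran from -0.76 to 1.83 with a median of 0.25, against a median of -0.03 over all 10376 measured genes. Among the 34, 21 were higher and 13 lower in the Hand2-null pool, so 61.8% were higher, beside 44.7% of all measured genes. These counts include ratios of either sign within the spread between probe sets. Of the 34, 4 reached the floor in 1 array only, as did 716 of all measured genes, so their direction was fixed by the floor. Adam22, Adam33 and Adamtsl5 could thus read only higher, and Adamts16 only lower. At least 2-fold higher were 6 genes, Mmp11, Mmp3, Mmp17, Adam22, Adamtsl1 and Adamts3, or 17.6% of those measured, beside 1.99% of all measured genes. None was at least 2-fold lower, beside 0.742% of all genes. At 1.5-fold, 10 genes were higher and 1 lower, beside 6.21% and 3.32% of all genes. All 6 lay above 0.93, the upper end of the middle 95% of all genes, and Adamts15 lay below the lower end of -0.66.

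**Figure D1:**
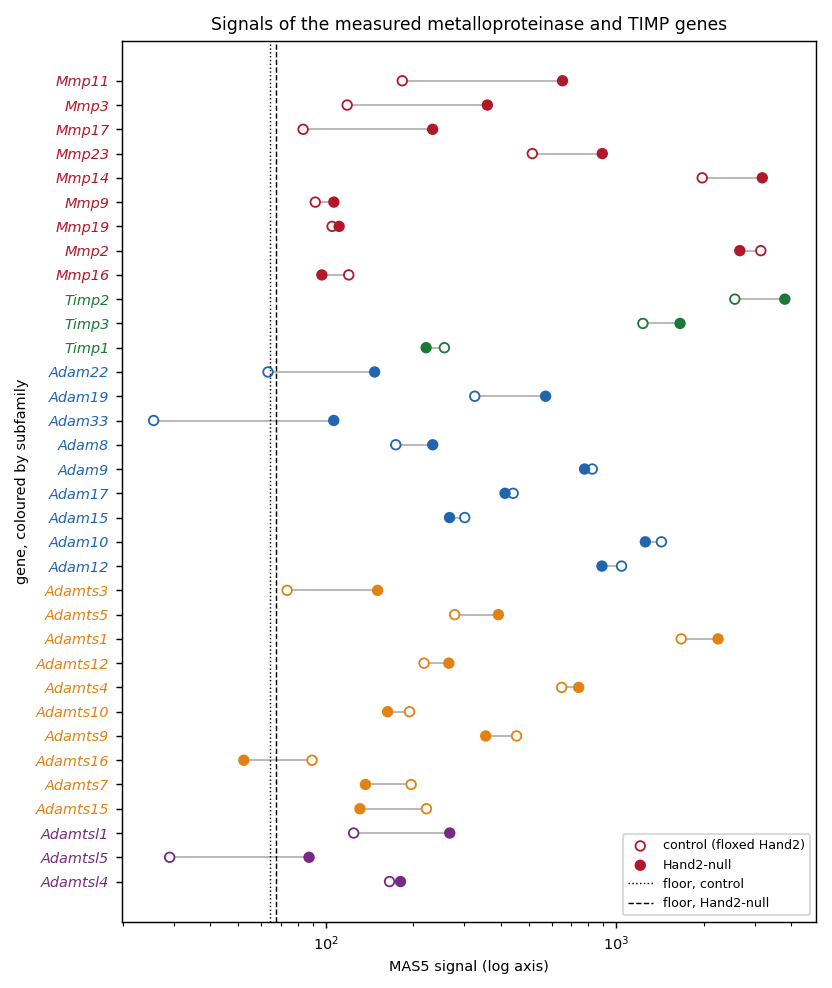
MAS5 signal on a log axis of the 34 measured genes, 1 row per gene, coloured by subfamily, with open circles for the control and filled circles for the Hand2-null pool (1 array each). The widest upward steps above the floor are those of Mmp11, Mmp3 and Mmp17, while Mmp2 and most ADAMs have circles that nearly touch.

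Medians of the subfamilies lay on both sides of 0. MMPs had a median log2 ratio of 0.69 over 9 measured genes, 7 of them higher. Without probe sets whose names end in _a_at, _s_at, _x_at or _f_at this median was 0.43, as Mmp23 then moved from 0.80 to 0.43. TIMPs had 0.42 over 3. ADAMTS-like proteins had a median of at least 0.45 over 3, which is the bound of Adamtsl5, and under the alternatives that moved it this median was 0.73 to 1.10. ADAMs, with -0.09 over 9 genes, and ADAMTS proteases, with -0.03 over 10, held about as many higher as lower genes. The sign of the ADAMTS median turned with the setting, from -0.08 to 0.12. These medians rest on few genes and no test was made of the differences between them.

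**Figure D2:**
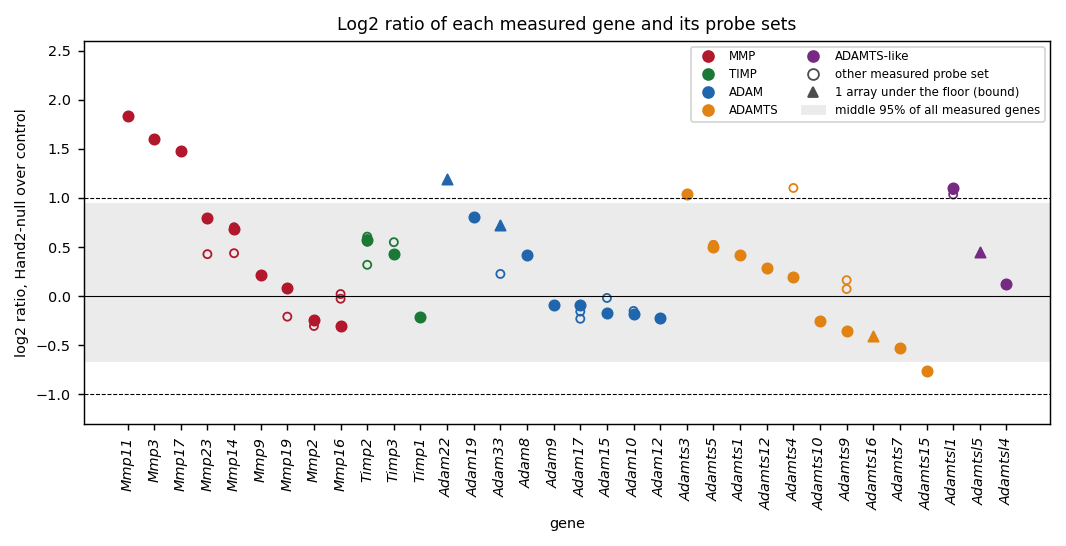
Log2 ratio of Hand2-null over control for each measured gene, coloured by subfamily. Filled symbols are the probe set that stands for the gene, as triangles where its ratio is a bound. Open circles are its other measured probe sets, some of which are bounds too. The grey band is the middle 95% of all measured genes (-0.66 to 0.93) and the dashed lines are 2-fold. The 3 probe sets of Adamtsl1 lie above the upper line, the dimmer pair as bounds, whereas those of Adamts4 are far apart.

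Among secreted MMPs, Mmp11 had the largest ratio of the 34 genes. It encodes stromelysin-3, an enzyme of stromal fibroblasts that furin activates inside the cell. Its single probe set read 183 in the control and 653 in the Hand2-null pool, which is 3.56-fold higher and rank 19 of the 10376 measured genes. Mmp3, stromelysin-1, which cuts many matrix proteins and activates other pro-MMPs, had 118 and 360, or 3.04-fold higher, at rank 47, also on a single probe set. These 2 genes remained at least 2-fold higher in each of the alternative treatments of the signals. The promoters of both are shown because these secreted MMPs had the largest ratios and because Mmp3 holds the AP-1 motif described next and Mmp11 does not. They run from 250 bases before to 50 after the annotated start site in RefSeq (GRCm38.p6), 5′ to 3′, with matches to the AP-1 motif in capitals.
Mmp3 promoter, chr9:7445572-7445871, plus strand: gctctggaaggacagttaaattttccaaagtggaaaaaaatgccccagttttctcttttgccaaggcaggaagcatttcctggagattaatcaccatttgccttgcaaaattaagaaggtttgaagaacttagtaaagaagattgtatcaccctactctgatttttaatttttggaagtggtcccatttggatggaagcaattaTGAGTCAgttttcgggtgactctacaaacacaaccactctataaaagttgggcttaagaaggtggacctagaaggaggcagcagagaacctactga
Mmp11 promoter, chr10:75932453-75932752, minus strand: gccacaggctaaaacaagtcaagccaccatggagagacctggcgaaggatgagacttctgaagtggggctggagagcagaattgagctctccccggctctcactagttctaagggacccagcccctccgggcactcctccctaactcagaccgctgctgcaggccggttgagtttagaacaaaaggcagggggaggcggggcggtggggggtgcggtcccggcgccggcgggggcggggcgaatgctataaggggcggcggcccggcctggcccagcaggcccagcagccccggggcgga

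Mmp3 lies in a chromosomal cluster. Read in chromosome order in RefSeq, Mmp13, Mmp12, Mmp1b, Mmp3, Mmp1a, Mmp10, Mmp8, Mmp27, Mmp20 and Mmp7 follow each other on chromosome 9 with 0 other protein-coding genes between them. The cluster holds collagenases, stromelysins, macrophage elastase, the enamel protease Mmp20 and matrilysin. Of its 10 genes 9 were on the array, and Mmp3 was the 1 that reached the floor. The other 8 had signals between 0.323 and 46.8, all under the floor in both arrays. Mmp10, the stromelysin most like Mmp3, read 10.8 in the control and 27.997 in the Hand2-null pool, and matrilysin Mmp7 had 23.9 and 46.8. No fold is given for them.

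The AP-1 motif, TGANTCA, is the site of Fos and Jun proteins and reads almost the same on both strands. It was found in the promoter window of 8 of the 10 cluster genes, or 80%. Among the other genes described here with a promoter sequence it was found in 3 of 32, or 9.38%, beside 8.97% of 27025 genes in the table. The stretches below show the match in capitals with 20 bases on each side, so that the cluster genes can be compared, and the distance of the first base of the match from the annotated start site is given for each.
Mmp13, match from -35, chr9:7272459-7272505, plus strand: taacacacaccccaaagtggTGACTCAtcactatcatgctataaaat
Mmp12, match from -44, chr9:7347310-7347356, plus strand: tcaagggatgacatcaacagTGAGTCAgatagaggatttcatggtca
Mmp1b, match from -93, chr9:7388093-7388139, minus strand: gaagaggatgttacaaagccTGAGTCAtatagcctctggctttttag
Mmp3, match from -46, chr9:7445756-7445802, plus strand: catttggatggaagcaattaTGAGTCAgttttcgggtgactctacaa
Mmp1a, match from -73, chr9:7464048-7464094, plus strand: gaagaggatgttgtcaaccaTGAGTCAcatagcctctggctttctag
Mmp10, match from -63, chr9:7502259-7502305, plus strand: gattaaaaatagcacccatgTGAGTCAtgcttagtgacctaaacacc
Mmp20, match from -95, chr9:7628116-7628162, plus strand: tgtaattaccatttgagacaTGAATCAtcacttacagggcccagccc
Mmp7, match from -63, chr9:7692007-7692053, plus strand: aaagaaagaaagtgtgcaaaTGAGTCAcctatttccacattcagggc

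Around the match, Mmp1a and Mmp1b shared 33 of 40 flanking bases, read without gaps, and the other pairs, of 28 in all, shared 6 to 19. Among the 19 measured genes with a promoter sequence, Mmp3 and Adam19 held the AP-1 letters. Mmp11, the gene with the largest ratio, did not hold them in this window. Those Fos and Jun genes that were in the immediate-early list were read beside these. Fos had 6968 in the control and 7931 in the Hand2-null pool, Fosb 468 and 920, Jun 3565 and 5000, and Junb 631 and 980. These listed genes were higher in the Hand2-null pool by log2 ratios of 0.19 to 0.98, that of Fos within the spread between probe sets. Other members of the Fos and Jun families were not read, and the part of any of them in the Mmp3 value was not tested. An E-box with the letters CATCTG, read on both strands, is a form of the site bound by basic helix-loop-helix factors such as HAND2. It stood in the window of 5 of 41 genes with a promoter sequence, or 12.2%, beside 19.2% of all promoters, and Adam19 and Mmp14 were the measured genes among the 5. A match is a run of letters and not a binding site.

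**Figure D3:**
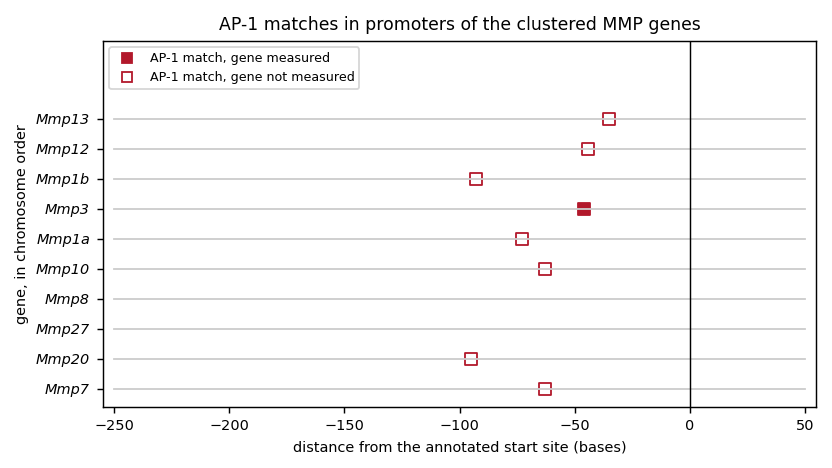
Position of AP-1 matches (squares, filled for the measured gene Mmp3) in the promoter windows of the 10 clustered MMP genes, in chromosome order, with the distance from the annotated start site in bases on the horizontal axis. The 8 matches lie between -95 and -35, and Mmp8 and Mmp27 show none.

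The gelatinases, which cut denatured collagen and basement membrane collagen, were close to the control. Mmp2 read 3143 and 2661, control first, for a log2 ratio of -0.24, and another probe set gave -0.30. Mmp9 read 91.9 and 106, for a log2 ratio of 0.21, and its other probe set did not reach the floor. Both stayed within 1.5-fold. S100a8 and S100a9, neutrophil genes, were lower at log2 ratios of -0.86 and -0.98 in the same array, and neutrophils are a known source of Mmp9; the part of such cells in its value was not tested. Mmp19, a basement membrane protease, had 105 and 111, and its probe sets had opposite signs, at 0.08 and -0.21.

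The membrane-bound MMPs were led by Mmp17, which is tied to the membrane by a lipid anchor. Its signals were 83.5 in the control and 233 in the Hand2-null pool, or 2.79-fold higher on a single probe set. The control signal lay near the floor, and with the floor at the 75th percentile its log2 ratio was at least 0.52. Mmp14, the collagenase of the cell surface that activates pro-Mmp2, had 1975 and 3180, or 1.61-fold higher. All 3 measured probe sets of Mmp14 were higher, at log2 ratios of 0.44 to 0.70. Mmp23, which is held in the membrane by its signal anchor, read 514 and 894, or 1.74-fold higher, and its other probe set gave 0.43. Mmp16 read 120 and 96.8, for a log2 ratio of -0.31, whereas its other measured probe sets gave 0.02 and -0.03. Mmp24, another membrane-type enzyme, read 25.0 and 13.4, both below the floor.

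Of the measured TIMPs, 2 were higher, and Timp1 was slightly lower, within the spread between probe sets. Timp2, which blocks MMPs and also forms the complex with Mmp14 that captures pro-Mmp2, had signals of 2558 and 3803, or 1.49-fold higher, and all 5 measured probe sets were higher, at log2 ratios of 0.32 to 0.61. Timp3, the inhibitor that binds to the matrix and also blocks Adam17 and several ADAMTS proteases, had 1235 and 1657, or 1.34-fold higher, with 3 measured probe sets between 0.42 and 0.55. Timp1 had 256 and 221, a log2 ratio of -0.21 on its single probe set. Timp4 was under the floor in both arrays. Of the 3 genes that act together on pro-Mmp2, Mmp14 and Timp2 were thus higher in every measured probe set and Mmp2 lower in both, by amounts under 2-fold.

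**Figure D4:**
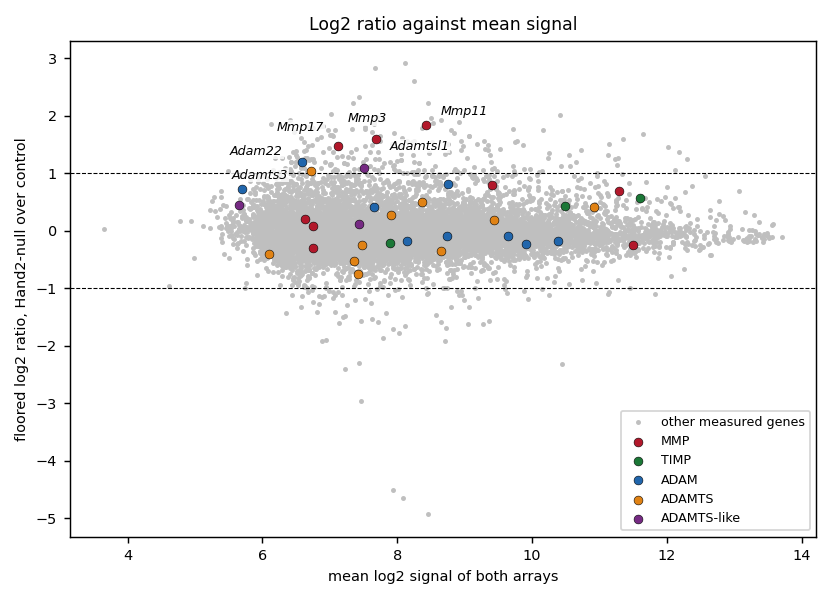
Floored log2 ratio of Hand2-null over control against the mean log2 signal of both arrays, for all 10376 measured genes (grey) and the 34 genes described here (coloured by subfamily), with dashed lines at 2-fold. The 6 genes past the upper line have low or middle signals, and Mmp14, Timp2 and Adamts1 lie on the upper side of a narrow cloud at high signals.

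Among ADAMs, the shedding enzymes of wide expression were level. Adam10, which releases Notch ectodomains and other substrates, had 1429 and 1259, control first, a log2 ratio of -0.18. Adam17, which releases tumour necrosis factor and ligands of the EGF receptor, read 441 and 414, for a log2 ratio of -0.09, and all 3 of its probe sets were slightly lower. Adam9 had 826 and 777, Adam15 301 and 267, and Adam12, a fibroblast ADAM that cuts IGF-binding proteins, 1042 and 892. These 5 genes had log2 ratios between -0.22 and -0.09, within the spread between probe sets of a gene or at its edge.

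The other measured ADAMs were higher, but Adam22 and Adam33 counted as measured only through the Hand2-null array and could read only higher. Adam22, a member without a catalytic site that binds secreted LGI proteins in nerve cells, had 63.2, just under the floor, in the control and 147 in the Hand2-null pool, which is at least 2.29-fold higher. With a pseudo-signal its log2 ratio was 0.75, and with the floor at the 75th percentile it was not measured. Adam19, an enzyme that sheds neuregulin, had 325 and 571, or 1.75-fold higher. Its dimmer probe set was under the floor in both arrays. Adam33, known from smooth muscle and fibroblasts of the human airway, was under the floor in the control by both probe sets, at 25.5 and 31.3, and reached 106 and 75.2 in the Hand2-null pool. Its representative probe set was at least 1.66-fold higher and the other at least 1.17-fold. With the floor at the 50th percentile, the log2 ratio of Adam33 was at least 1.61, so that its place relative to 2-fold depends on the floor. Adam8, a protease of leukocytes, had 174 and 233, a log2 ratio of 0.42. Smooth muscle markers, with their median of 1.36, were higher in the same array, and the part of such cells in these ADAM values was not tested.

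The 19 ADAMs under the floor in both arrays had signals between 0.208 and 55.03. Many of them are known from testis or sperm, such as Adam1a, Adam1b, Adam2, Adam3, Adam5, Adam18, Adam24, Adam25, Adam26a, Adam32 and Adam34. Adam4, Adam6a, Adam6b, Adam7, Adam21 and Adam28 were also under the floor, as were Adam11 and Adam23, which like Adam22 have no catalytic site. Adam22 was thus the 1 of these 3 that was measured, while Adam11 read 55.03 in the control and 35.8 in the Hand2-null pool and Adam23 22.6 and 26.7.

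The ADAMTS proteases fell on both sides of 0. Of those that cut versican and other proteoglycans, Adamts1, a target of progesterone in the ovary, had 1672 and 2240, a log2 ratio of 0.42. Adamts5 had 277 and 392, or 1.41-fold higher, and its 3 measured probe sets lay together at 0.50 to 0.52. Adamts4 was ambiguous, since its brighter probe set had 648 and 742, a log2 ratio of 0.20, and the dimmer one 117 and 251, a log2 ratio of 1.10. Adamts15 had the lowest log2 ratio of the 34 genes, with signals of 222 and 131, or 1.69-fold lower on a single probe set. Adamts9 was ambiguous too, with 453 and 355, a log2 ratio of -0.35, by its brightest probe set and 0.07 and 0.16 by the others. Thus 3 of the 5 measured proteoglycanases were higher and 2 lower, and their median log2 ratio was 0.20. Their substrate versican, Vcan, had 1166 and 883, a log2 ratio of -0.40.

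Outside that group, Adamts3, which trims procollagen and processes a growth factor of lymphatic vessels, had 73.5 and 151, or 2.05-fold higher. It passed 2-fold barely: its log2 ratio was 0.98 after centring each array on its median and 0.66 with a pseudo-signal, it was not measured once the floor was raised to the 75th percentile, and its other probe set was under the floor. Adamts7 and Adamts12, relatives that cut a cartilage matrix protein, lay on opposite sides, with 197 and 137, a log2 ratio of -0.52, for Adamts7, and 218 and 265, a log2 ratio of 0.28, for Adamts12. Adamts10, which binds fibrillin, had 194 and 163, a log2 ratio of -0.25. Adamts16 read 89.6 and 52.2, the second below the floor, or at least 1.33-fold lower. Adamts6, Adamts8, Adamts18, Adamts19 and Adamts20 did not reach the floor, with signals of 2.25 to 55.3.

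The 3 measured ADAMTS-like genes read higher, but Adamtsl5 counted as measured only through the Hand2-null array and could read only higher. Adamtsl1, punctin, a secreted matrix protein, had 125 and 267, or 2.14-fold higher, and it is the 1 gene past 2-fold whose value is shared by several probe sets: its 3 measured probe sets gave log2 ratios of 1.04 to 1.10, with the control signals of the dimmer pair under the floor. With a pseudo-signal its log2 ratio was 0.82, and with the floor at the 75th percentile at least 0.71. Adamtsl5 had 29.0, under the floor, in the control and 87.5 in the Hand2-null pool, or at least 1.36-fold higher, although its dimmer probe set was under the floor in both. With the floor at the 50th percentile its log2 ratio was at least 1.32, so that its place relative to 2-fold depends on the floor too. Adamtsl4, which takes part in fibrillin microfibrils, had 166 and 181, a log2 ratio of 0.13, within the spread between probe sets. Adamtsl2 and Adamtsl3 were under the floor.

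Other genes that activate, restrain or accompany these proteases were read from lists of 32 genes, of which 30 were on the array and 20 measured. None of the 20 was at least 2-fold higher or lower, beside 1.99% and 0.742% of all measured genes. With so few genes, a count of 0 does not set this list apart from those shares. The 20 genes had 12 higher and 8 lower and a median log2 ratio of 0.06, while 44.7% of all measured genes were higher. Among 8 measured genes of activation and membrane control, the convertases Pcsk6 and Furin, which remove propeptides, had log2 ratios of 0.76 and -0.10. Pcsk6 had 72.0 and 122, and Pcsk5, another convertase, 2805 and 1980, a log2 ratio of -0.50. Plat, the tissue plasminogen activator, had 939 and 1488, a log2 ratio of 0.66, and Plau, the urokinase activator, read 27.3, under the floor, and 94.6, a log2 ratio of at least 0.56. Reck, a membrane inhibitor of MMPs, had 653 and 770, a log2 ratio of 0.24. Of 4 other measured metalloproteases, Pappa, a protease of IGF-binding proteins, was at 0.62 and the neprilysin gene Mme at -0.58. The 7 measured partners of Adam10 and Adam17 lay between -0.31, for Tspan14, and 0.61, for Tspan33.

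**Figure D5:**
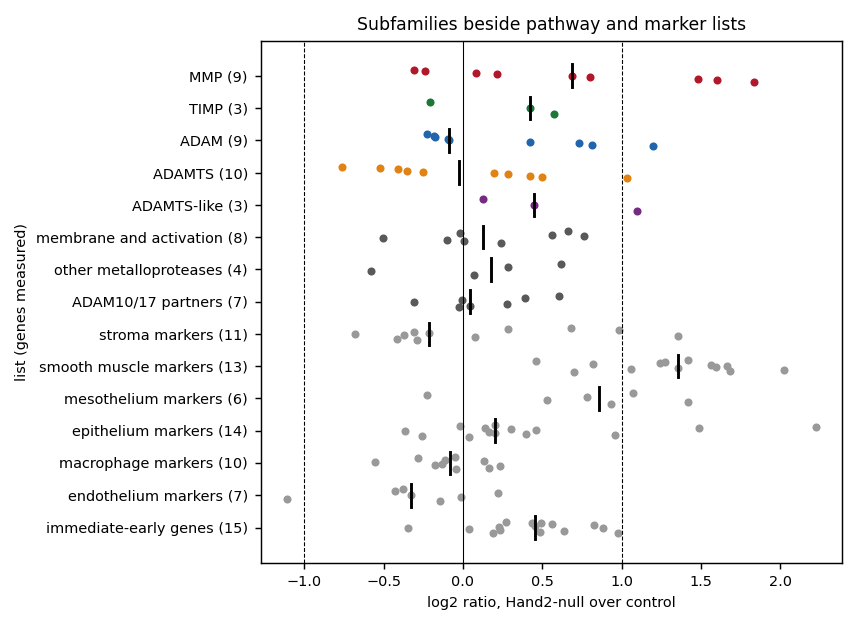
Log2 ratio of Hand2-null over control of measured genes (points) with the median of each list (black bars), for the 5 subfamilies (coloured), 3 lists of related genes (dark grey) and 7 marker lists (light grey), with dashed lines at 2-fold. MMPs have a median of 0.69 (0.43 without probe sets named _a_at, _s_at, _x_at or _f_at) and smooth muscle markers 1.36, whereas ADAMs, ADAMTS proteases and the lists of related genes centre near 0.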

How the data were processed

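Pooled RNA of each genotype was labelled from 100 ng and hybridized to 1 Affymetrix mouse array, per the labels' protocols. The deposited values are linear intensity; the submitters' processing notes name MAS5 and Affymetrix Expression Console (version 1). With 2% trimmed from either end, both arrays had a mean of 150.001, so the authors had scaled them to a common mean. Other normalization and a genome build are not given in the sources used here. Of 45101 probe sets, 64 were controls, 34945 had 1 gene in the platform annotation, 932 several and 9160 none. All 70 symbols matched RefSeq (GRCm38.p6), used for names and gene order, and 41 had a promoter sequence.

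Signals were put on a log2 scale with a floor at the 60th percentile of non-control probe sets. Each gene was represented by its brightest measured probe set (mean log2 signal), and a difference was counted at a log2 ratio of at least 1. No test was made, since there is 1 array per group. The members and lists were chosen with earlier results of these data known. Every measured member is named, as are members under the floor; of related genes, those with large ratios or well-known roles are named, some after their values were seen. Alternatives changed the scaling (median centring, quantiles, loess with a span of 0.3) and the floor (50th percentile, 75th percentile, none, or added as a pseudo-signal). Others changed the probe sets (their mean, or without those named _a_at, _s_at, _x_at or _f_at), the threshold (1.5-fold, 3-fold) and the summary (mean). The steps were tested on simulated data. Python 3.11.15, numpy 2.4.6, pandas 2.3.3, statsmodels 0.14.6 and matplotlib 3.10.9 were used.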

Additional observations from a re-analysis of the deposited data

How the results depend on the processing

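At least 2-fold higher were 6 of the measured genes as reported. The count was 2 with the floor at the 75th percentile, 18 with no floor, 3 with a pseudo-signal equal to the floor, 10 at a threshold of 1.5-fold and 2 at 3-fold, and 5 to 8 under the other alternatives. The count at least 2-fold lower was 0, but 6 with no floor and 1 at 1.5-fold. With no floor all 70 genes enter, most of them with signals too dim for steady ratios. Among all 18193 genes, 1646 (9.05%) were then at least 2-fold higher and 1626 (8.94%) lower. The 6 lower members among 70 do not exceed that share, whereas the 18 higher ones do. Raising the floor left 26 members, beside 1.56% of 7489 genes that were at least 2-fold higher. The pseudo-signal kept 34 members, and 1.13% of 10376 genes were at least 2-fold higher. Median centring took the split over all genes from 206 higher and 77 lower to 178 and 95. The median log2 ratio of the measured members ran from 0.19 to 0.35 over the alternatives. Of 297 values of single genes under 9 alternatives, 24 moved by more than the spread between probe sets. Mmp19 changed sign, from 0.08 to -0.06 with the mean over its probe sets, and 0 of the values past 2-fold did so. Adamts3, Adamtsl1, Mmp17 and Adam22 nevertheless fell under 2-fold in some alternatives. No paired analysis was possible because each group has 1 array. The number of arrays and signals near the floor limit the precision.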

Other observations

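Probe sets of related name that the symbol rule left out were dim. Adamdec1, an ADAM-like protease without the numbered name, had signals of 44.4 in the control and 31.1 in the Hand2-null array. The 4 probe sets shared by Adam1a and Mapkapk5 and the 1 shared by Adam6a and Adam6b were also under the floor in both arrays.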
